A study of Gallus gallus with 4 samples.

Results

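Immediate early genes are switched on within minutes of a growth factor, stress or wound signal, from transcription factors already in the cell, and most of their mRNAs are short-lived. FOS and JUN proteins pair as AP-1, EGR1 is a zinc finger factor induced through ERK and serum response factor, and MYC drives growth and ribosome making. The Krüppel-like factors KLF2 and KLF4 are held high in endothelium by steady laminar flow and keep vessels quiescent. VEGF-A induces several of these genes early in cultured endothelial cells, and the present data show their levels in a whole tissue a day later.

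The genes considered were 10 such factors, chosen by name: FOS, JUN, JUND, FOSL2, EGR1, ATF3, MYC, KLF2, KLF4 and IER2. Of these, 8 had a chicken probe set under their symbol, among 13008 named genes on the array, while JUND and IER2 had none and are not analysed here. The 8 genes had 9 probe sets, since EGR1 has 2. Where a gene had several, the brightest over the 4 arrays stands for it.

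The tissue was the chick chorio-allantoic membrane (CAM), the vascular membrane that lines the egg shell, taken at developmental day 14. VEGF CAMs 1, 2 and 3 had each carried 3 µg of human recombinant VEGF-A, dried on a plastic disc, for 24 h from day 13, and were excised where new capillaries could be seen. RNA of each was hybridised to 1 array, and RNA of 3 normal CAMs of the same day was pooled on 1 control array. The sources differ on the control: the labels mention a disc for it too, a legend of the study speaks of solvent and the methods call these CAMs normal. An effect of disc or solvent therefore cannot be told apart from that of VEGF-A. The spread between control CAMs was not measured, and strain and sex of the embryos are not given in the sources used here. Levels are linear signal intensities as the authors scaled them, and a ratio is the signal of 1 VEGF-A CAM over that of the control pool. In such bulk tissue, fewer cells of a type and less RNA per cell cannot be told apart.

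Probe sets were kept for tests where their mean signal was past the 40th percentile of all chicken probe sets, a signal of 11.1, and signals under the 20th percentile, 3.12, were treated as having no level of their own. Of the 8 genes, 6 passed (FOS, JUN, EGR1, ATF3, MYC and KLF2). FOS was just inside with a mean signal of 12.8. FOSL2 and KLF4 were outside with means of 6.85 and 5.35, and are described without a test. The probe sets past the filter numbered 22616, of which 10505 represent a named gene. The 2-fold rule used here calls a gene whose ratio is past 2-fold in at least 2 of the 3 comparisons. It is the fold condition of the study's rule, which for higher genes also required a detection call of present with VEGF-A, a condition not applied here. By this rule 0 of the 6 genes were higher, against 5.37% of all genes and 6.79% of probe sets past the filter, and 2 were lower (FOS and ATF3), against 6.03% of genes and 9.25% of probe sets. By limma, a linear model over all probe sets, 0 of the 6 and 0 of 22616 probe sets passed an adjusted p of 0.05. At an unadjusted p under 0.05 limma gave 0 of the 6. It gave 3.98% of genes higher and 2.11% lower, and over all probe sets 872 higher (3.86%) and 546 lower (2.41%). The lowest adjusted p by limma among the 6 genes was 0.85.

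**Figure D1:**
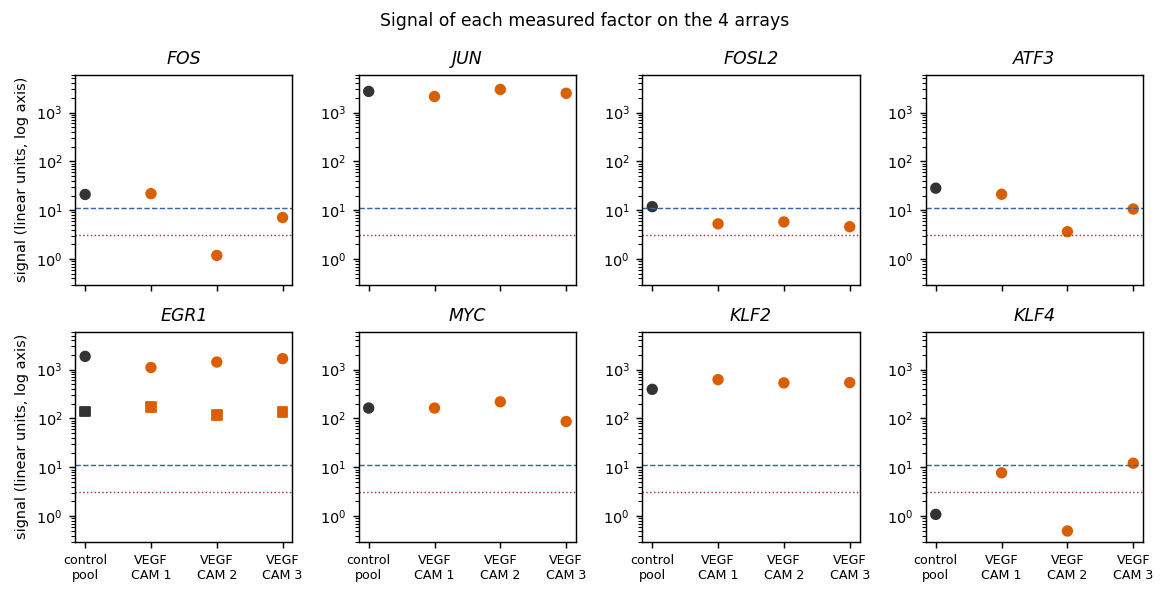
Signal of the 8 measured factors (log axis) in the control pool (black) and VEGF CAMs 1, 2 and 3 (orange). Circles are the representing probe set, squares the other EGR1 probe set, the blue dashed line the filter at 11.1 and the red dotted line the floor at 3.12. JUN, EGR1, MYC and KLF2 lie above the filter on every array, whereas FOS, FOSL2, ATF3 and KLF4 have at least 1 array below it.

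KLF2, which turns on anticoagulant and vasodilator genes in endothelium under flow, measured 395 in the control pool and 624, 535 and 542 in VEGF CAMs 1, 2 and 3. It was the 1 gene of the 6 that was above the control in every VEGF-A CAM, a pattern found in 24.6% of genes and 23.2% of probe sets past the filter. The VEGF-A CAMs had a mean of 567 ± 49.4 (SD, n = 3 CAMs), a mean ratio of 1.44 ± 0.13 (SD, n = 3 CAMs). The 3 CAMs differed among themselves by only 1.17-fold, and 85.3% of 3407 probe sets with a mean signal within 2-fold of that of KLF2 had a larger range (91.8% of all probe sets past the filter). On the log2 scale its mean ratio was 0.52, with a standard error of 0.30 and a 95% interval from -0.19 to 1.22 (limma adjusted p = 0.85). Of the 3407 probe sets of like signal, 86.0% had a smaller mean log2 ratio (84.8% of all probe sets past the filter). KLF2 was higher than the control by more than the spread between the VEGF-A CAMs, but the test did not pass. That test takes the lone control array to vary as the VEGF-A CAMs do. It also draws the narrow spread of KLF2 toward the wider one typical of probe sets of like signal.

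Most markers of blood endothelium had larger ratios than KLF2. By the 2-fold rule 16 of 24 markers past the filter were higher and 0 lower, against 5.37% and 6.03% of all genes. Their summed signal was 8123 in the control pool and 16277, 10914 and 16854 in VEGF CAMs 1, 2 and 3. Their median log2 ratio was 1.44, 0.66 and 1.28 in VEGF CAMs 1, 2 and 3, where that of KLF2 was 0.66, 0.44 and 0.46. In all 3 CAMs 14 of the markers had a larger ratio than KLF2 and 4 a smaller one, and none of the 24 was at 0 in the control. The part of endothelial cell number in the KLF2 ratio was not tested.

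KLF4, which shares flow-induced targets with KLF2 and also marks differentiating epithelium, was near the background on every array. Its signal was 1.09 in the control pool and 7.72, 0.50 and 12.1 in VEGF CAMs 1, 2 and 3. The control pool and VEGF CAM 2 lie below the floor of 3.12, so there is no fold between them. Against that floor, VEGF CAM 1 was at least 2.47-fold and VEGF CAM 3 at least 3.88-fold higher, and VEGF CAMs 2 and 3 lie on both sides of the floor. The data therefore do not settle whether KLF4 differed.

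Other Krüppel-like and SP factors past the filter, which bind the same GC-rich elements, numbered 10 of 21 listed. The 2-fold rule called 0 of them in either direction, against 5.37% of all genes higher and 6.03% lower. At these shares few calls would fall in a list of 10 genes. The median log2 ratio of the 10 was -0.18, beside -0.07 for all genes past the filter. The following members are named after their values were seen. KLF15, a factor of metabolic and glucocorticoid responses, had 616 in the control pool and 322, 335 and 222 in VEGF CAMs 1, 2 and 3, and was below the control in all 3. Its mean log2 ratio of -1.10 passed an unadjusted limma threshold of 0.05 but not the adjusted one (limma adjusted p = 0.69, with a standard error of 0.36), and its dimmer probe set had -1.15.

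KLF9, a glucocorticoid-responsive factor, had 125 in the control pool and 72.9, 77.4 and 69.6 in VEGF CAMs 1, 2 and 3 (mean log2 ratio -0.77, limma adjusted p = 0.81). KLF6, an immediate early member of the family, had 3275 against 2003, 2355 and 2308, and its 3 probe sets had mean log2 ratios of -0.56, -0.74 and -0.48. Against these, KLF10, induced by TGF-beta, had log2 ratios of 0.28, 0.66 and 0.60, and KLF11, its close relative, had 0.33, 0.37 and 0.56. Of the 10 genes, 3 lay above the control in all 3 CAMs and 4 below. These counts were near the shares of all genes past the filter, 24.6% and 29.8%.

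**Figure D2:**
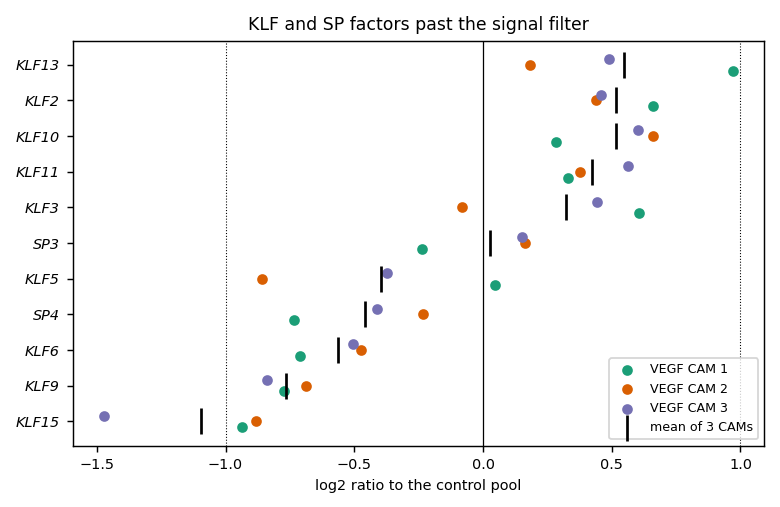
Log2 ratio to the control pool of KLF2 and the 10 other Krüppel-like and SP factors past the filter, in VEGF CAM 1 (green), 2 (orange) and 3 (purple), with the mean of the 3 as a bar. Dotted lines mark a 2-fold difference. KLF2, KLF10, KLF11 and KLF13 lie above 0 in every CAM, and KLF6, KLF9, KLF15 and SP4 below it.

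EGR1, which binds GC-rich promoters of growth factor and matrix genes, measured 1869 in the control pool and 1104, 1430 and 1681 in VEGF CAMs 1, 2 and 3. All 3 CAMs lay below the control, as did 29.8% of genes and 31.9% of probe sets past the filter. The VEGF-A CAMs averaged 1405 ± 289 (SD, n = 3 CAMs). On the log2 scale the mean ratio was -0.43, with a standard error of 0.32 and a 95% interval from -1.19 to 0.32 (limma adjusted p = 0.86). The other EGR1 probe set, whose name marks probes shared by more than 1 transcript, read 140 in the control pool and 170, 119 and 137 in VEGF CAMs 1, 2 and 3. There the groups overlapped, with a mean log2 ratio of 0.0032 (limma adjusted p = 1.00, with a standard error of 0.36). Averaged over both probe sets the log2 ratio of EGR1 was -0.21.

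The order of the arrays in the brighter EGR1 probe set, from control pool through VEGF CAMs 3 and 2 to VEGF CAM 1, was also that of the actin probes for RNA integrity. Signal at the 3' over the 5' end of actin was 24.2 for the control pool against 15.5, 19.7 and 22.9 for VEGF CAMs 1, 2 and 3. For the elongation factor EF1a it was 8.74 against 5.74, 6.65 and 7.38, in the same order. The control pool was highest for both actin and EF1a, so this measure differed along with treatment for every gene described here. The part of RNA integrity in the values of EGR1 and of the other genes was not tested.

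JUN, the main DNA-binding partner in AP-1 and first found as the oncogene of an avian sarcoma virus, was bright and nearly level. Its signal was 2709 in the control pool and 2126, 2970 and 2481 in VEGF CAMs 1, 2 and 3, so that the control lay within the range of the VEGF-A CAMs. They averaged 2526 ± 424 (SD, n = 3 CAMs). On the log2 scale the mean ratio was -0.11, with a standard error of 0.29 and a 95% interval from -0.79 to 0.56 (limma adjusted p = 0.93), and 0.0025 without VEGF CAM 1. The interval still holds differences of up to that size in either direction.

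FOS, the partner of JUN that has no stable dimer of its own, was dim. Its signal was 21.0 in the control pool and 21.8, 1.18 and 7.08 in VEGF CAMs 1, 2 and 3. VEGF CAM 1 was level with the control and VEGF CAMs 2 and 3 were lower, VEGF CAM 2 lying below the floor of 3.12. Against that floor it was at least 6.72-fold lower, and VEGF CAM 3 had a ratio of 0.337. The mean log2 ratio was -1.89 as measured and -1.42 with the floor, with a standard error of 1.91 (limma adjusted p = 0.87). Of 7468 probe sets with a mean signal within 2-fold of that of FOS, 18.1% were called lower by the same rule.

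ATF3, a stress-induced factor of the same bZIP class that often represses, measured 28.3 in the control pool and 21.2, 3.63 and 10.6 in VEGF CAMs 1, 2 and 3. All 3 CAMs lay below the control, VEGF CAM 2 furthest, and VEGF CAMs 2 and 3 were past 2-fold. The mean log2 ratio was -1.60, with a standard error of 1.17 and a 95% interval from -4.34 to 1.14 (limma adjusted p = 0.86). Among 8898 probe sets with a mean signal within 2-fold of that of ATF3, 17.1% were called lower. The calls of FOS and ATF3 rest on VEGF CAMs 2 and 3 together: without either, 0 of the 6 genes were lower, and 0 also with an offset of 32 added to all signals.

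FOSL2, a FOS relative with a longer-lived protein, was below the filter, measuring 11.8 in the control pool and 5.26, 5.76 and 4.59 in VEGF CAMs 1, 2 and 3. Every VEGF-A CAM was under the control, by log2 ratios of -1.17, -1.04 and -1.37. All 4 signals are dim, and with the offset of 32 the mean log2 ratio was -0.24 in place of -1.19.

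MYC, which dimerizes with MAX to drive transcription of growth genes, was the gene on which the VEGF-A CAMs disagreed most among those bright on every array. Its signal was 163 in the control pool and 163, 220 and 86.7 in VEGF CAMs 1, 2 and 3, so that 1 CAM was level with the control, 1 above and 1 below. The range between VEGF CAM 2 and VEGF CAM 3 was 2.53-fold. Among 5111 probe sets with a mean signal within 2-fold of that of MYC, 8.02% had a larger range (21.7% of all probe sets past the filter). The mean log2 ratio was -0.16, with a standard error of 0.53 and a 95% interval from -1.40 to 1.08 (limma adjusted p = 0.95), and it turned to 0.21 without VEGF CAM 3.

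**Figure D3:**
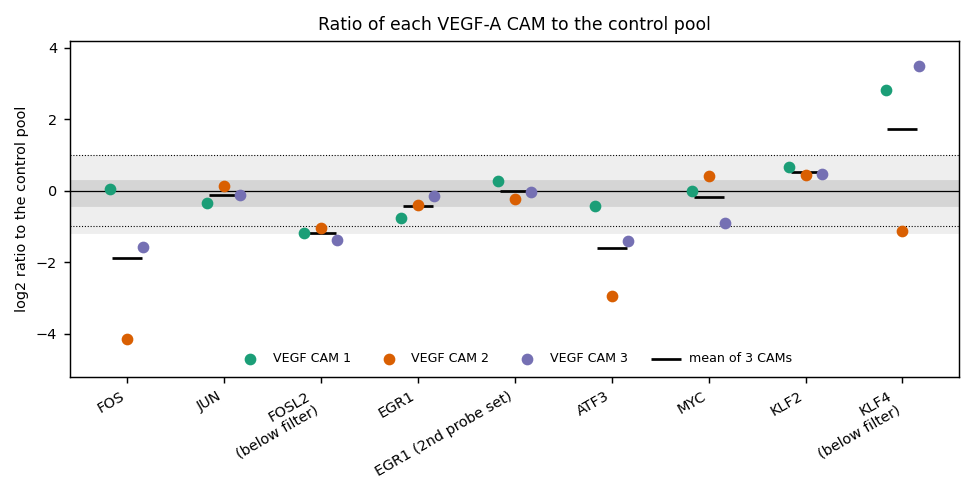
Log2 ratio to the control pool of the 9 probe sets in VEGF CAM 1 (green), 2 (orange) and 3 (purple), with the mean as a black bar. The grey bands hold the middle 50% and 90% of the mean log2 ratios of all genes past the filter, and dotted lines mark a 2-fold difference. KLF2 has the tightest values of the genes past the filter, and FOS and ATF3 spread most.

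Over the 6 genes the median of the mean log2 ratios was -0.30, and by CAM it was -0.17, -0.13 and -0.53 in VEGF CAMs 1, 2 and 3. The standard errors ran from 0.29 for JUN to 1.91 for FOS. Bright and dim members differed in this: JUN, EGR1, MYC and KLF2 had mean log2 ratios between -0.43 and 0.52, and the dim FOS and ATF3 had -1.89 and -1.60.

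**Figure D4:**
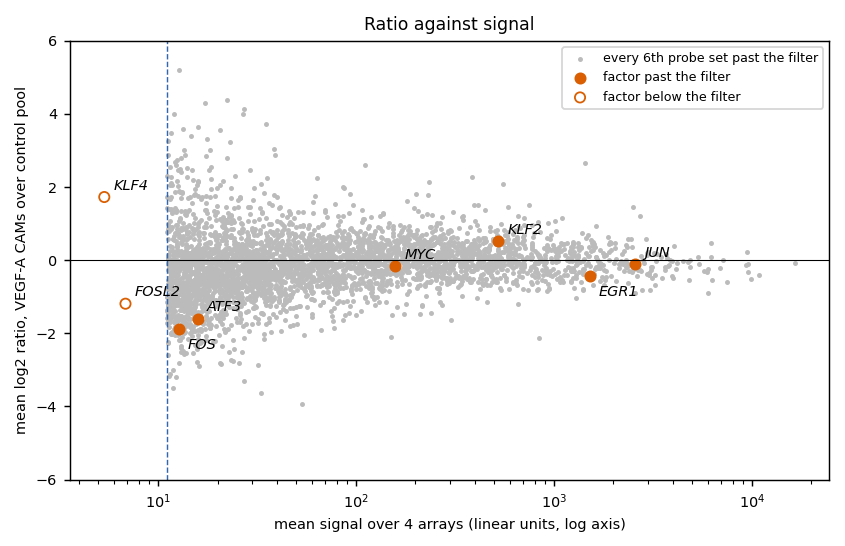
Mean log2 ratio of the 3 VEGF-A CAMs over the control pool against mean signal over the 4 arrays (log axis), for every 6th probe set past the filter (grey) and the representing probe sets of the 8 factors (orange, open where below the filter). The grey cloud widens toward dim signals, where FOS and ATF3 lie, and MYC, KLF2, EGR1 and JUN lie inside its narrower part at bright signals.

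Other immediate early genes showed no call in either direction. Of 30 symbols listed, 19 had a probe set and 16 passed the filter. Of these, 0 were more than 2-fold higher and 0 lower, against 5.37% and 6.03% of all genes past the filter. At these shares few calls would fall in a list of 16 genes. At an unadjusted limma p under 0.05 there were 0, against 3.98% of all genes higher and 2.11% lower. The median log2 ratio of the 16 was -0.04. Of the 16, 4 lay above and 3 below the control in all 3 CAMs, where 24.6% and 29.8% of all genes past the filter did. FOSB, FOSL1, JUNB, EGR2, EGR3, NR4A1 and ZFP36 had no probe set under their symbol and are not analysed here. The following genes are again named after their values were seen.

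BTG1, an antiproliferative gene, was level, with 7018 in the control pool and 6311, 8245 and 7403 in VEGF CAMs 1, 2 and 3. NFKBIA, the inhibitor of NF-kappaB that NF-kappaB itself induces, had 473 against 655, 696 and 681, above the control in all 3 (mean log2 ratio 0.52, limma adjusted p = 0.85, with a standard error of 0.29). SIK1, a kinase induced by cAMP, had 172 against 108, 104 and 97.3, below it in all 3 (mean log2 ratio -0.74, limma adjusted p = 0.81, with a standard error of 0.33). Both had narrow ranges between the VEGF-A CAMs, as KLF2 had.

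Related bZIP factors and AP-1 partners numbered 18 past the filter, with 1 higher and 1 lower, against 5.37% and 6.03% of all genes. Their median log2 ratio was -0.08. The higher one was MAF, a large MAF factor expressed in lens, macrophages and some endothelium, with 10.2 in the control pool and 54.5, 48.6 and 71.5 in VEGF CAMs 1, 2 and 3. Its mean log2 ratio was 2.49 (limma adjusted p = 0.65, with a standard error of 0.44), but its other probe set past the filter had -0.28. The control signal of 10.2 is below that of the filter, so the first probe set passed only through its VEGF-A CAMs. In the control pool the other probe set was brighter, at 37.4. The call and the test of MAF thus rest on a probe set selected by its VEGF-A signals. The lower one was CEBPA, a factor of differentiating epithelium and myeloid cells, with 33.7 against 19.9, 8.14 and 8.76 (mean log2 ratio -1.58, limma adjusted p = 0.85). With the offset of 32 CEBPA was no longer called.

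Partners and antagonists of MYC had 14 genes past the filter and MYC targets of ribosome making had 22. In both lists 0 were called in either direction, against 5.37% of all genes higher and 6.03% lower. At these shares few calls would fall in lists of this size. The medians of these lists were 0.09 and 0.07. By CAM the median of the targets was 0.06, 0.36 and -0.12 in VEGF CAMs 1, 2 and 3, highest in VEGF CAM 2 and lowest in VEGF CAM 3. The MYC signal had this order, as had the medians of heat shock genes (0.01, 0.23 and -0.05) and of G2/M and mitosis (1.33, 1.37 and 0.91). The medians of the partners and antagonists of MYC had the opposite order (0.11, -0.02 and 0.18). The part of MYC in these values was not tested. MYCN, named after its values were seen, had 287 in the control pool and 493, 295 and 503, so that the CAM with the most MYC had the least MYCN of the 3.

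Upstream of the early genes, SRF, which carries ERK and actin signals to their promoters, had 194 in the control pool and 247, 261 and 245 in VEGF CAMs 1, 2 and 3 (mean log2 ratio 0.37, limma adjusted p = 0.87). Its cofactor ELK3, named with SRF after the values were seen, had 815 against 1940, 1090 and 2035, and was called by the 2-fold rule (mean log2 ratio 1.00, limma adjusted p = 0.77, with a standard error of 0.40). ELK3 is a ternary complex factor expressed in endothelium, and VEGF CAM 2 was closest to the control, as it was for the blood endothelial markers. Of 27 genes of the ERK path past the filter, 3 were higher and 2 lower, against 5.37% and 6.03% of all genes. The 2 others that were higher, MAPK10 and RPS6KA3, had dim control signals of 4.51 and 1.60, the second below the floor. Both are below the signal of the filter, so these genes passed it only through their VEGF-A CAMs. In the control pool the other probe set of each was brighter (9.38 and 7.59). The lower ones were also dim. SOS1, an exchange factor that activates RAS, had 36.8 in the control pool and 4.13, 35.6 and 13.3 in VEGF CAMs 1, 2 and 3, and PRKCB, a protein kinase C, had 32.3 against 33.7, 6.03 and 14.9. In each of them 1 CAM was level with the control (SOS1 in VEGF CAM 2, PRKCB in VEGF CAM 1). With the offset of 32 only 1 gene of the ERK path was higher and 0 were lower.

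The phosphatases and inhibitors that end ERK signalling, many of them early genes themselves, had 2 of 20 higher and 0 lower, with a median of 0.03. The shares of all genes past the filter were 5.37% higher and 6.03% lower. SPRY1, an inhibitor of receptor tyrosine kinases, had 6.34 in the control pool and 29.5, 23.6 and 32.7 in VEGF CAMs 1, 2 and 3. SPRED2, which blocks activation of RAF, had 3.79 against 22.1, 28.1 and 17.3. Both control signals are dim and below that of the filter, so these genes passed it only through their VEGF-A CAMs. With the offset of 32 neither was called. DUSP1, named after its values were seen, is an early gene that dephosphorylates MAP kinases. It had 150 against 205, 152 and 237, with VEGF CAM 2 level with the control (mean log2 ratio 0.38, limma adjusted p = 0.87).

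Targets of KLF2 and KLF4 under laminar flow had 7 of 28 genes higher and 1 lower, against 5.37% and 6.03% of all genes past the filter. Above the control in all 3 CAMs were 16, against 24.6% of all genes. Their median log2 ratio was 0.47. The list mixes genes that KLF2 raises with genes it lowers, such as EDN1 and VCAM1. Its counts and median therefore have no single direction with respect to KLF2. TEK, the angiopoietin receptor, had 65.9 in the control pool and 269, 275 and 324 in VEGF CAMs 1, 2 and 3 (mean log2 ratio 2.13, limma adjusted p = 0.65). TIE1, its co-receptor, had 74.0 against 293, 201 and 329 (mean log2 ratio 1.86, limma adjusted p = 0.65). Both receptors are endothelial and were above the control in every VEGF-A CAM. APLN, the ligand of the apelin receptor, had 77.9 against 411, 204 and 236 (mean log2 ratio 1.80, limma adjusted p = 0.65). EDN1, the vasoconstrictor that KLF2 lowers, was dim, with 27.9 against 7.14, 9.13 and 5.66, below the control in all 3 (mean log2 ratio -1.96, limma adjusted p = 0.85, with a standard error of 1.09).

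Of these 28 genes, 4 are also on the endothelial marker lists. Without them 4 of 24 were higher and 1 lower, against 5.37% and 6.03% of all genes past the filter, with a median of 0.36. The marker lists need not hold every endothelial gene among the 28, so the remainder is not free of endothelial genes. This count was chosen after seeing the data. VCAM1, an adhesion molecule that KLF2 lowers, had log2 ratios of 0.56, 0.83 and 0.57, and THBD and NOS3, defining targets of KLF2, were below the filter and without a probe set under their symbol. EDN1 thus lay below the control and VCAM1, named after its values were seen, above it. These are only the genes of this list marked here as lowered by KLF2, and the other genes described were not sorted by that direction. With the offset of 32 EDN1 was no longer called.

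The path that induces KLF2 and KLF4 runs from MEK5 and ERK5 to MEF2. With flow sensors it had 3 of 22 genes higher and 2 lower (median 0.20), against 5.37% and 6.03% of all genes. The higher ones were KDR, CDH5 and PECAM1, which are endothelial markers themselves. KDR, the main VEGF-A receptor of endothelium, had 101 in the control pool and 376, 194 and 395 in VEGF CAMs 1, 2 and 3. The lower ones were YAP1, a flow-sensitive coactivator, with 22.1 against 6.90, 18.1 and 3.46 (mean log2 ratio -1.55, limma adjusted p = 0.87), and HDAC7, a repressor of MEF2 named after its values were seen, with 15.2 against 19.7, 6.74 and 4.98. Both are dim, and with the offset of 32 neither was called. MEF2A, a factor that binds the KLF2 promoter, was named after its values were seen. It had 349 in the control pool and 698, 580 and 669 in VEGF CAMs 1, 2 and 3, above it in all 3. Its mean log2 ratio of 0.89 passed an unadjusted limma threshold of 0.05 but not the adjusted one (limma adjusted p = 0.69, with a standard error of 0.30). The 2 other MEF2A probe sets past the filter had 0.89 and 0.30.

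Targets of AP-1 and EGR1 had 1 of 21 genes higher and 4 lower, against 5.37% and 6.03% of all genes past the filter. Their median was -0.25. MMP13, a collagenase, had 97.0 in the control pool and 19.1, 44.4 and 25.2 in VEGF CAMs 1, 2 and 3 (mean log2 ratio -1.81, limma adjusted p = 0.69, with a standard error of 0.55). MMP10, a stromelysin, had 226 against 98.2, 112 and 130, with log2 ratios of -1.20, -1.02 and -0.80 (limma adjusted p = 0.71). Both lay below the control in every VEGF-A CAM.

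In the same list MMP9, a gelatinase, had 320 against 139, 371 and 142, and SPP1, the matrix phosphoprotein osteopontin, had 209 against 44.8, 492 and 103. SPP1 completes the count of 4 and was named after its values were seen. In both, VEGF CAM 2 lay above the control and the other two CAMs below it. MMP9 is also 1 of 6 heterophil markers past the filter and makes up much of their summed signal. That sum was 627 in the control pool and 392, 941 and 564 in VEGF CAMs 1, 2 and 3. The median log2 ratio of the 6 markers was -0.96, 0.80 and 0.57, so above the control in VEGF CAM 3 too. The part of heterophils in the MMP9 and SPP1 values was not tested. PDGFB, the endothelial ligand that recruits pericytes, was the higher gene, with 685 against 1388, 911 and 1639 (mean log2 ratio 0.90, limma adjusted p = 0.79, with a standard error of 0.38). With each array centred on its median, 2 of the list were lower in place of 4.

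**Figure D5:**
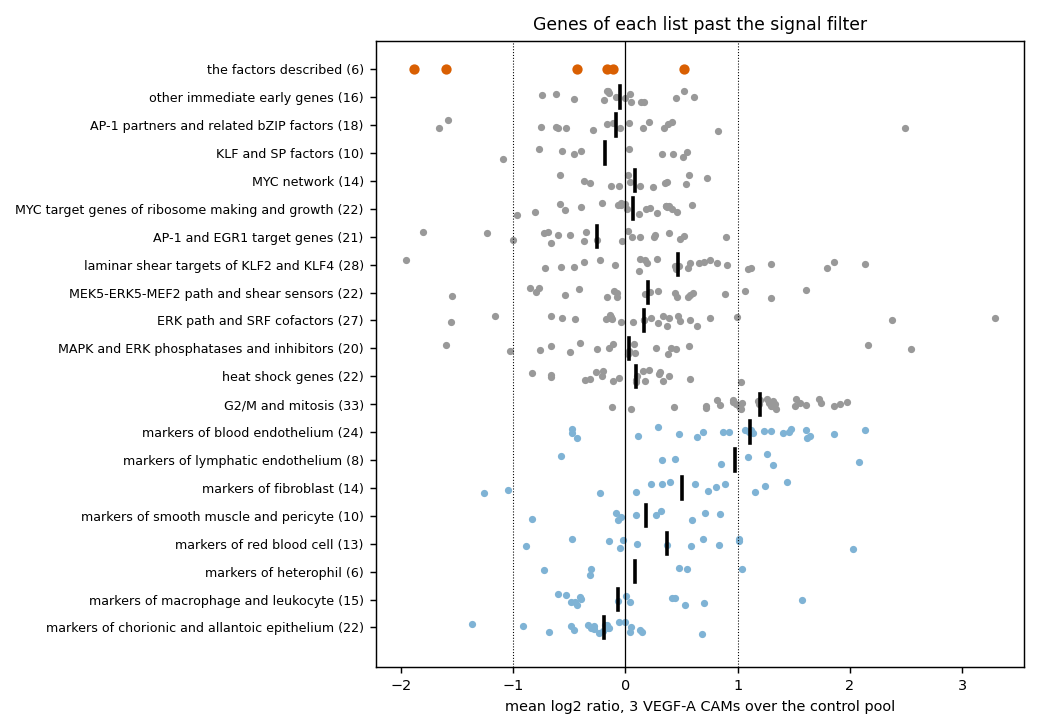
Mean log2 ratio of the 3 VEGF-A CAMs over the control pool for each gene past the filter, by list, with the number of genes in brackets and, except for the 6 factors, the median as a black bar. Orange points are the 6 factors, grey points pathway lists and blue points cell type markers, and dotted lines mark a 2-fold difference. The lists of early genes have medians near 0, and G2/M and mitosis and blood endothelium (1.11) have the highest.

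Among cell type markers, 22 of epithelium had a summed signal of 57494 in the control pool and 36751, 57327 and 46173 in VEGF CAMs 1, 2 and 3, and median log2 ratios of -0.29, -0.20 and -0.21. Macrophage and leukocyte markers (15) had sums of 3925 against 2630, 3643 and 4618 and medians of 0.03, -0.02 and 0.03. Both sums, but not both medians, were lowest in VEGF CAM 1, as JUN and the brighter EGR1 probe set were. The other EGR1 probe set was highest there (170, against 140 in the control pool). Heterophil markers (6) had medians of -0.96, 0.80 and 0.57. Fibroblast markers (14) had sums of 37172 against 48013, 68418 and 57167 and medians of 0.37, 0.67 and 0.54. Genes of G2/M and mitosis had 22 of 33 higher and 0 lower, against 5.37% and 6.03% of all genes past the filter. Heat shock genes, which are induced by stress of the tissue, had 1 of 22 higher (SERPINH1, the collagen chaperone, with 106 against 182, 254 and 221), 0 lower and a median of 0.09. The part of these cell types in the values of the factors was not tested.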

How the data were processed

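Values deposited by the authors are linear signal intensities, neither logged nor floored, scaled so that each array has a 2% trimmed mean of 100.0. The submitters' processing notes name GCOS 1.2. The signal settings are not given in the sources used here, and detection calls were not used. Of 38535 probe sets, 37693 are chicken ones. Platform annotation gave 1 symbol to 27166 of these, several to 177 and none to 10350. Probe sets with several symbols name none here.

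Log2 signals were fitted in R 4.3.3 with limma 3.58.1 (variance trend, two-sided, Benjamini-Hochberg over 22616 probe sets, 2 residual degrees of freedom, prior degrees of freedom 5.23), tested on simulated data beforehand. In the simulated data the control array varied as the VEGF-A arrays did. The simulation therefore cannot check whether the real control does. With 3 arrays against 1, exact permutation reaches no p under 0.25. Plots used Python 3.11.15 and matplotlib 3.10.9. Only the 3 VEGF-A CAMs, taken as separate animals, give a probe set its own spread. The model draws that spread toward the one typical of probe sets of like signal. The number of arrays limits the precision.

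The genes and lists were chosen with earlier results of these data known. Named are all 10 factors and, per list, up to 4 genes called by the 2-fold rule with the largest absolute mean log2 ratio, and others are marked as named later. Cell type and mitosis lists are given by counts, sums or medians only. Alternatives were quantile normalization, median centring, a floor, no filter, a filter at the 60th percentile, signals offset by 32, no variance trend, the mean over probe sets and leaving out each VEGF-A CAM.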

Additional observations from a re-analysis of the deposited data

How the results depend on the processing

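KLF2, EGR1, FOS and ATF3 kept their direction under every alternative run, with mean log2 ratios from 0.45 to 0.62, -0.57 to -0.21, -2.86 to -0.36 and -2.19 to -0.48. Several alternatives could not have reversed them. The filters and the variance trend do not enter the mean log2 ratio. For KLF2, EGR1 and ATF3 every VEGF-A CAM lay on the same side of the control. For these a floor, an offset or a CAM left out could not change the sign either. JUN ranged from -0.24 to 0.0025 and MYC from -0.46 to 0.21 (reversed without VEGF CAM 1 and VEGF CAM 3, respectively), and 0 of the genes passed limma. The mean log2 ratio of FOSL2 was -0.93 after quantile normalization and -0.24 with the offset of 32. Without a filter, 1 of the 8 factors was more than 2-fold higher (KLF4) and 3 were lower (FOSL2 besides FOS and ATF3). Of all 37693 chicken probe sets, 4565 were then higher and 6804 lower. When 1 CAM was left out, between 0 and 2 factors were lower, and 0 were with the offset or the filter at the 60th percentile. FOS and ATF3 fail that stricter filter.

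Over all probe sets, 1535 were more than 2-fold higher and 2092 lower. These counts were 245 and 232 with the offset, 4565 and 6804 of 37693 without a filter, and 703 and 730 of 15077 at the 60th percentile. They were 886 to 1027 and 915 to 1047 with 1 CAM left out, when both remaining CAMs must pass. Higher probe sets made up 42.3% of calls, and 55.8% after quantile normalization. Limma called 0 to 1 lower with a CAM left out, the 1 without VEGF CAM 1. Median centring moved the median log2 ratio of genes from -0.07 to 0.03.

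With the offset of 32, bZIP factors had 0 lower, AP-1 and EGR1 targets 0 higher and 2 lower, laminar shear targets 0 lower, the MEK5 path 0 lower, the ERK path 1 higher and 0 lower, ERK phosphatases and inhibitors 0 higher and heat shock genes 0 higher. AP-1 and EGR1 targets had 2 lower with median centring. Shear targets without endothelial markers had 4 higher, an alternative chosen after seeing the data. No paired analysis was possible because the control is 1 array of RNA pooled from 3 CAMs, so that no VEGF-A CAM has a control of its own.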
